A study of Mus musculus with 4 samples.

Results

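The Hedgehog receptors, co-receptors and Gli factors were described as a group of 9 genes, taken by name from the 53465 genes of the count table: Ptch1, Smo, Hhip, Boc, Cdon, Gas1, Gli1, Gli2 and Gli3. The counts came from mRNA that stayed in polysomes after a brief treatment with harringtonine, which stalls ribosomes at start codons while elongating ribosomes run off, followed by cycloheximide, which freezes the rest. Both groups received this treatment. The control cells were STHdhQ7/Q7 and the HD-homo cells STHdhQ111/Q111, immortalized mouse striatal lines with a C57/BL6 background whose knocked-in huntingtin exon 1 encodes 7 or 111 glutamines on both alleles. Each group had 2 libraries of 1 line. The study describes them as independent experiments, and the labels do not say whether they came from separate cultures, so the p-values weigh the groups against the spread between these libraries alone. The repeat cannot be told apart from any other difference between these lines. Libraries of total RNA were not analysed here, so less mRNA in the cells and fewer copies in polysomes cannot be told apart, nor can fewer cells of a type and less RNA per cell.

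Hedgehog ligands bind the receptor Ptch1 together with a co-receptor, Boc, Cdon or Gas1. Without ligand Ptch1 keeps the transducer Smo inactive, and with ligand Smo accumulates in the primary cilium and changes the processing of the Gli transcription factors. Gli2 acts mainly as an activator and Gli3 mainly as a repressor, while Gli1, Ptch1 and Hhip are themselves target genes of the pathway. In the developing brain the pathway patterns the ventral forebrain, from which the striatum arises.

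Library totals were 14122706 and 15472808 counts in control and 12372090 and 14074182 in HD-homo cells. Of 10 markers of striatal projection neurons 3 had 0 counts in every library, Drd1 and Drd2 among them, and of 6 neuron markers 3 did, Rbfox3, Snap25 and Syt1. In CPM (counts scaled to library size after TMM normalization) the striatal list summed to 7.78 and 5.78 in control and 4.12 and 8.47 in HD-homo cells, with 1 of 4 tested markers higher and 2 lower, and the neuron list to 38.3 and 70.3 against 44.1 and 61.4, with neither of the 2 tested markers called. Each called striatal marker had under 10 counts in at least 1 library. The summed level of 6 fibroblast and pericyte markers was 766 and 1546 in control and 4944 and 4846 in HD-homo cells, with 4 of the 5 tested markers higher. That of 5 neural progenitor markers was 187 and 253 in control against 9.03 and 8.62 in HD-homo cells, with 3 of the 4 tested lower and Hes5 at 0. Of these lower markers 1 had under 10 counts in at least 1 library. Of all tested genes 10.4% were called higher and 10.9% lower. The 6 oligodendrocyte lineage markers summed to 33.6 and 38.4 in control against 50.7 and 58.6 in HD-homo cells. For 5 microglia markers these sums were 39.7 and 42.1 against 28.2 and 26.0. In each list 1 of the 2 tested markers was higher, and that marker had under 10 counts in at least 1 library. The other tested microglia marker had a log2 fold change of -0.66 and was not called. Sox10 and Olig2 of the oligodendrocyte list had 0 counts in every library, as did Aif1 and Cx3cr1 of the microglia list. Sums were 4.03 and 3.22 against 7.00 and 4.82 for 5 astrocyte markers, where the 1 tested marker was not called. They were under 1 for 5 endothelial markers, of which 0 were tested. The part of these differences in the results was not tested.

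The main change among the 9 genes lay in the Gli factors and the co-receptors. In HD-homo cells Gli2, Gli1 and Boc were lower, Gas1 was higher, and Ptch1, Smo, Cdon and Gli3 passed no threshold. Genes were called at an adjusted p under 0.05 (edgeR quasi-likelihood fit, p-values adjusted by Benjamini-Hochberg over the 12961 tested genes). Of the 8 members tested, 1 was called higher and 3 lower, where 21.2% of all tested genes were called, 10.4% higher and 10.9% lower. The counts at an unadjusted p under 0.05 were the same, 1 and 3. The median log2 fold change of HD-homo over control was -0.33 over the 8 tested members and 0.0017 over all tested genes. The filter on low counts left out Hhip, and Gli1 passed it through its control libraries.

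**Figure D1:**
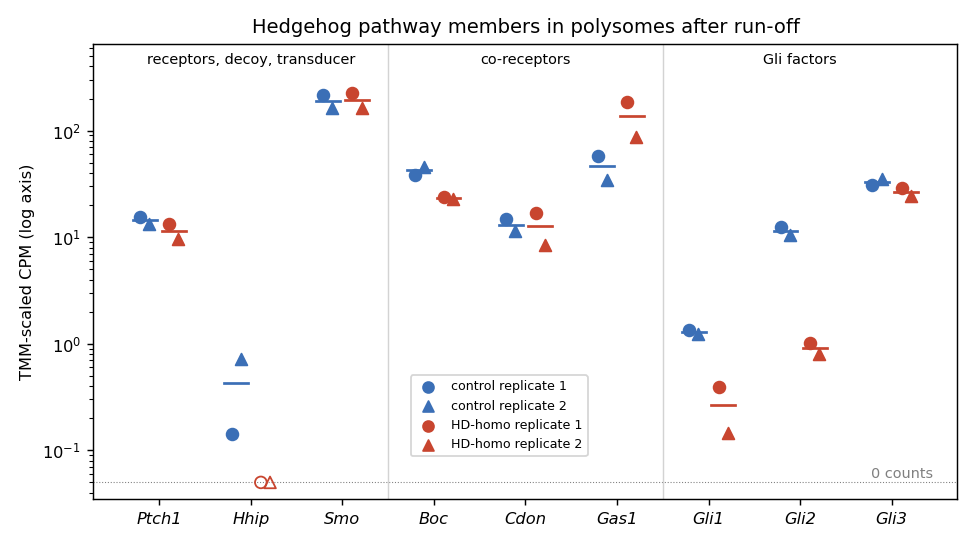
TMM-scaled CPM of the 9 genes on a log axis, with 1 point per library (circles, replicate 1; triangles, replicate 2) and a bar at each group's mean; open symbols on the dotted line mark 0 counts. The points of control and HD-homo lie far apart for Gli2, apart for Gli1, Boc and Gas1, and overlap for Smo and Cdon.

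Ptch1, the ligand receptor, lies on the minus strand of chromosome 13 from 63508328 to 63573598 (GRCm38, GENCODE M21). It was at 15.4 and 13.3 CPM in control and at 13.2 and 9.64 CPM in HD-homo libraries. The HD-homo libraries were below the controls, but the higher of them missed the lower control by very little. The log2 fold change was -0.33 (SE 0.26, 95% interval -0.90 to 0.24, edgeR adjusted p = 0.455), an interval that holds both a fall and a slight rise.

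Hhip, a membrane protein that sequesters the ligands, is encoded on the minus strand of chromosome 8 from 79965851 to 80058006. It had 2 and 11 counts in the control libraries and 0 in both HD-homo libraries. With a floor of 3 counts over the HD-homo group, the CPM was at least 3.92-fold lower there, a bound of counting error only. It was not reached evenly: leaving out control replicate 1 gave 6.39-fold, leaving out either HD-homo library gave 2.02-fold (replicate 1) or 1.90-fold (replicate 2), and none could be given without control replicate 2, which left 2 counts. When no filter on low counts was applied, edgeR called Hhip lower at an adjusted p of 0.0122.

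Smo, the transducer that Ptch1 holds in check, lies on the plus strand of chromosome 6 from 29735503 to 29761365. Its level was 217 and 163 CPM in control and 226 and 163 CPM in HD-homo libraries. Replicate 1 was the higher one in both lines and the groups overlapped almost entirely. The log2 fold change was 0.03 (SE 0.23, edgeR adjusted p = 0.949), and its 95% interval of -0.47 to 0.53 spanned 0. The sign turned without control replicate 2 (-0.16) and without HD-homo replicate 1 (-0.21).

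The co-receptors moved in different directions. Boc, an immunoglobulin and fibronectin repeat protein, lies on the minus strand of chromosome 16 from 44485049 to 44558897. It was at 38.7 and 46.0 CPM in control and at 23.8 and 22.9 CPM in HD-homo libraries. Both HD-homo values were below both controls, with group means of 42.3 ± 5.14 and 23.4 ± 0.619 CPM (SD, n = 2 each). Boc was 1.81-fold lower (log2 fold change -0.86, SE 0.23, 95% interval -1.35 to -0.37, edgeR adjusted p = 0.0143). The call was lost without control replicate 2 (edgeR adjusted p = 0.104) and without HD-homo replicate 2 (0.0566), where Boc was still 1.66-fold and 1.78-fold lower.

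Cdon, the paralog of Boc, lies on the plus strand of chromosome 9 from 35421128 to 35507652. It was at 14.7 and 11.4 CPM in control and at 16.7 and 8.47 CPM in HD-homo libraries. The HD-homo values enclosed both control values. The log2 fold change was -0.05 (SE 0.32, 95% interval -0.74 to 0.63, edgeR adjusted p = 0.937), and its sign turned without control replicate 1 (0.14) and without HD-homo replicate 2 (0.36).

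Gas1 encodes a co-receptor held in the membrane by a lipid anchor, and it was named for its rise in growth-arrested cells. It lies on the minus strand of chromosome 13 from 60174405 to 60177365. Its level was 58.2 and 34.3 CPM in control and 186 and 86.9 CPM in HD-homo libraries. Both HD-homo values were above both controls, although replicate 1 was the higher one by 1.70-fold in control and 2.14-fold in HD-homo cells. Gas1 was 2.95-fold higher in HD-homo cells (log2 fold change 1.56, SE 0.33, 95% interval 0.84 to 2.28, edgeR adjusted p = 0.00364). Without HD-homo replicate 1 the rise was 1.90-fold (edgeR adjusted p = 0.0177).

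Of the Gli factors, Gli2 changed by the largest fold of the 8 tested members. Gli2 lies on the minus strand of chromosome 1 from 118834132 to 119053619. It had 177 and 161 counts in control and 13 and 11 in HD-homo libraries, or 12.5 and 10.6 against 1.01 and 0.803 CPM. The libraries of each line were close to each other and the groups lay far apart. Gli2 was 12.6-fold lower in HD-homo cells (log2 fold change -3.66, SE 0.35, 95% interval -4.41 to -2.91, edgeR adjusted p = 3.95e-06), and it was called under all 12 alternatives, with log2 fold changes from -3.81 to -3.50.

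Gli1, an activator whose transcription follows pathway activity, lies on the minus strand of chromosome 10 from 127329882 to 127341974. It had 19 and 19 counts in control and 5 and 2 in HD-homo libraries, or 1.34 and 1.2 against 0.389 and 0.146 CPM. Both HD-homo libraries were lower, on few counts. The fitted log2 fold change was -2.25 (SE 0.58, 95% interval -3.50 to -1.01, edgeR adjusted p = 0.0119). The ratio of control to HD-homo counts, pooled over each group and scaled by its pooled library size, was 4.91 with a counting interval of 2.17 to 13.0. The call was lost with DESeq2 (adjusted p = 0.0874), without control replicate 1 (edgeR adjusted p = 0.0546) and when HD-homo replicate 2 was left out (0.142), and the fitted difference was 8.33-fold (0.0208) when HD-homo replicate 1 was left out. Exons of Arhgap9 on the opposite strand overlap those of Gli1 and had 1 to 10 counts per library, and as no source used here gives the strand setting of the counting, reads of the pair may not be separable.

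Gli3, the main repressor, lies on the plus strand of chromosome 13 from 15463235 to 15730026. Its level was 30.8 and 35.2 CPM in control and 28.8 and 24.1 CPM in HD-homo libraries. The HD-homo values were below the controls by less than the test could call (log2 fold change -0.32, SE 0.23, 95% interval -0.82 to 0.18, edgeR adjusted p = 0.401). With Ptch1, Boc, Gli1 and Gli2 it was 1 of 5 tested members, and with the untested Hhip 1 of 6 in all, whose HD-homo libraries were both below the controls, with Gas1 the 1 member above, where both HD-homo libraries were below both controls for 28.5% and above them for 28.6% of all tested genes, 57.2% in either direction.

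**Figure D2:**
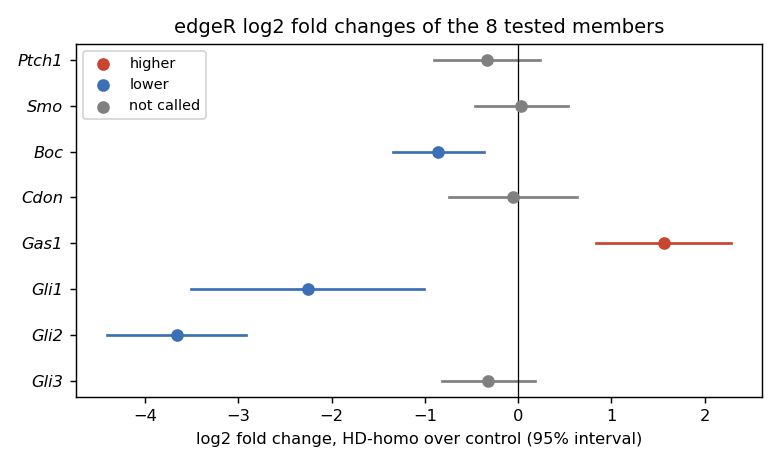
edgeR log2 fold change of HD-homo over control for the 8 tested genes (points) with 95% intervals (lines), coloured by call at an adjusted p under 0.05. The interval of Gli2 runs from -4.41 to -2.91 and that of Gas1 from 0.84 to 2.28, while those of Ptch1, Smo, Cdon and Gli3 include 0.

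The promoters of 7 of the 9 genes matched the RefSeq promoter table (GRCm38.p6), which holds 250 bases before and 50 after the start of a RefSeq transcript. For Ptch1, Cdon, Gli3 and Gas1 that start does not match the outermost one of GENCODE M21. The window lies 7613 bases inside the Ptch1 gene, 30698 bases inside the Cdon gene and 238 bases inside the Gli3 gene. The Gas1 window lies wholly before the GENCODE start and ends 121 bases from it. Gli2 and Gas1 are shown as the members with the largest fall and rise of those tested and matched, and Ptch1 as a textbook pathway target. Each is printed 5′ to 3′ along its gene, at chr1:119053570-119053869, chr13:60177486-60177785 and chr13:63565686-63565985, all on the minus strand, and capitals mark a GC box (GGGCGG on either strand).
Gli2: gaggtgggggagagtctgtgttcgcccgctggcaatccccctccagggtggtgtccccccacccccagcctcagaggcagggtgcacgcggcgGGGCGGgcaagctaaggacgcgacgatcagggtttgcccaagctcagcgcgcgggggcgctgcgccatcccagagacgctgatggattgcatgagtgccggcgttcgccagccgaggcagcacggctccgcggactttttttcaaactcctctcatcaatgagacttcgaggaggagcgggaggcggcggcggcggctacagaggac
Gas1: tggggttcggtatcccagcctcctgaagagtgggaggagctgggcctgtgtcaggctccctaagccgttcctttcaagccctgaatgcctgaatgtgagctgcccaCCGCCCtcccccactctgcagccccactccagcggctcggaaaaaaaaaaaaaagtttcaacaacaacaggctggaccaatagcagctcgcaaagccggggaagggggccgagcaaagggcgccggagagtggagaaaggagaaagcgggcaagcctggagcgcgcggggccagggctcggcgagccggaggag
Ptch1: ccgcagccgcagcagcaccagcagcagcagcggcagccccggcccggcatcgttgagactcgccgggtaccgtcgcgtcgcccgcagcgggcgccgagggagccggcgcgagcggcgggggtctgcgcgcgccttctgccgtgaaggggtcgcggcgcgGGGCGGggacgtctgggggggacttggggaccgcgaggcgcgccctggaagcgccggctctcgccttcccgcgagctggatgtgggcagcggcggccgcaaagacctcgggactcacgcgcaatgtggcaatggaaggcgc
The Gli recognition sequence GACCACCCA, searched on both strands, was in 0 of the 7 windows and in 0.253% of all 32851 promoters of the table. The GC box was in 5 of the 7 and in 35.7% of all promoters, and with no Gli match none overlapped. The GC content was 67.3% for Gli2, 62.3% for Gas1 and 76.3% for Ptch1, beside a median of 52.7% over all promoters.

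Levels were compared between genes as CPM per kilobase of exon. In control cells the mean levels fell from Smo (33.8) through Gas1 (15.6), Boc (9.51) and Gli3 (3.44) to Cdon (1.69) and Gli2 (1.68), and on to Ptch1 (1.01), Gli1 (0.259) and Hhip (0.0476). Only Cdon and Gli2 overlapped among neighbours in that order. In HD-homo cells Gas1 (46.1) and Smo (34.6) overlapped at the top, and Boc (5.25), Gli3 (2.76), Cdon (1.63), Ptch1 (0.806), Gli2 (0.132) and Gli1 (0.0536) followed. Gli2 thus stood above Ptch1 in the control order and below it in the HD-homo order. The control order of this pair depends on the exonic lengths used, 14185 bases for Ptch1 and 6869 for Gli2. In CPM not divided by length, Gli2 was below Ptch1 in control too (12.5 and 10.6 against 15.4 and 13.3).

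The makeup of the Gli family by this per-kilobase level differed between the lines. Gli3 made up 60.5% and 67.2% of the summed level in control and 93.0% and 94.5% in HD-homo libraries. Gli2 made up 34.4% and 28.2% in control and 4.56% and 4.40% in HD-homo libraries, the latter on 13 and 11 counts. The ratio of Gli3 to Gli2 was 1.76 and 2.38 in control and 20.4 and 21.5 in HD-homo libraries. The summed level of the family was 5.30 and 5.46 CPM per kilobase in control and 3.23 and 2.66 in HD-homo libraries. With 2 libraries per group an exact permutation test over samples cannot go below a two-sided p of 0.33, so these shares carry no test.

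Among the co-receptors the share of Gas1 was 65.0% and 49.5% in control and 89.3% and 82.4% in HD-homo libraries. The share of Boc was 28.7% and 44.2% in control and 7.61% and 14.5% in HD-homo libraries. Per kilobase Gas1 was the most abundant co-receptor in every library, but in CPM Boc was above it in control replicate 2 (46.0 against 34.3). The libraries of the lines did not overlap for either share. Shares within a library depend on each other, so they are not results separate from the levels given above. The ratio of Gas1 to Boc was 2.26 and 1.12 in control and 11.7 and 5.70 in HD-homo libraries. Cdon held 6.30% and 6.33% in control and 3.08% in each HD-homo library, although its own level passed no threshold. The ratio of Smo to Ptch1 was 35.6 and 30.8 in control and 43.1 and 42.6 in HD-homo libraries.

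**Figure D3:**
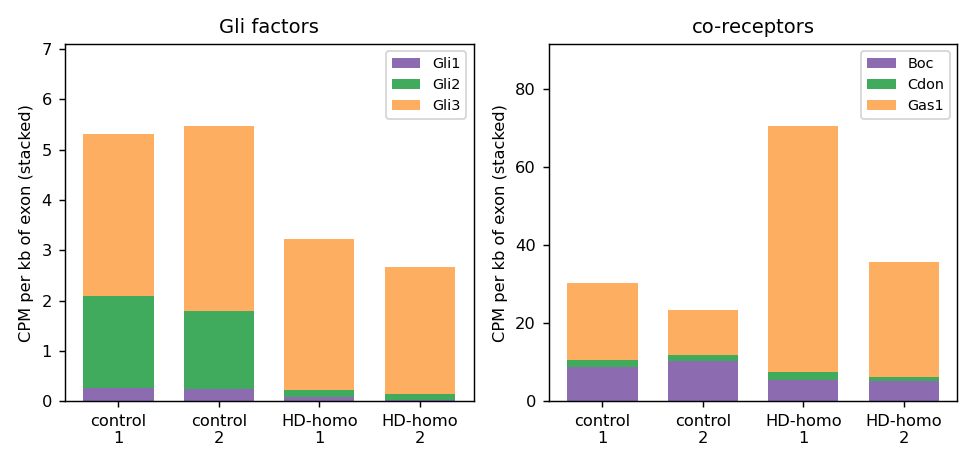
CPM per kilobase of exon in each library, stacked for the 3 Gli factors (left) and the 3 co-receptors (right), with separate linear axes that start at 0. The Gli2 segment shrinks from 34.4% and 28.2% in control to 4.56% and 4.40% of the stack in HD-homo libraries, and the Gas1 segment of HD-homo replicate 1 exceeds that of replicate 2.

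Part of the spread between libraries ran the same way in both lines. Replicate 1 exceeded replicate 2 by at least 1.2-fold in both groups for Smo (1.34 and 1.39), Cdon (1.29 and 1.98) and Gas1 (1.70 and 2.14), a limit chosen after the values were seen, and for 12.9% of all tested genes. Gli2 stood at 1.18 in control and 1.26 in HD-homo cells. Boc (0.842 and 1.04) and Gli3 (0.874 and 1.19) were lower in replicate 1 of the control line and slightly higher in replicate 1 of the HD-homo line.

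**Figure D4:**
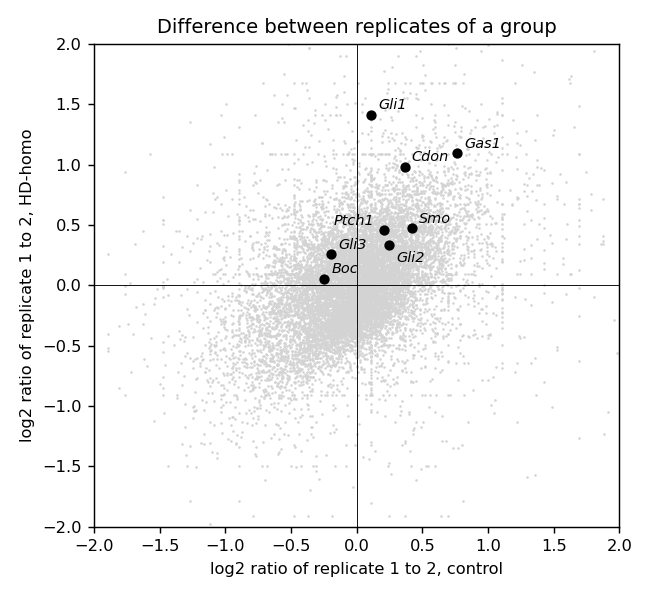
log2 ratio of replicate 1 to replicate 2 in control (x) and HD-homo (y) for the tested genes with counts in all 4 libraries, with both axes cut at 2 (91 of 12651 genes lie beyond); black points are the 8 tested members. Gas1, Cdon and Smo lie in the upper right, at ratios of at least 1.2 in both groups.

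The genes whose pattern was nearest to that of Gli2, by the Euclidean distance of centred log2 CPM (with a prior count of 2) over the 4 libraries, were Fam217b (0.152), Otx1 (0.175) and Bmp2 (0.208). Otx1, a homeobox gene of the forebrain, was at 25.8 and 21.0 CPM in control and at 1.87 and 1.68 CPM in HD-homo libraries. Fam217b was at 11.5 and 11.1 CPM against 0.934 and 0.803 CPM. Bmp2, a growth factor gene that is also on the list of Gli targets, had 23 and 21 counts in control and 0 in both HD-homo libraries, at least 13.3-fold lower at a floor of 3 counts over the group. Its log2 CPM in the HD-homo libraries, and with it its distance and place in this order, was set by the prior count. That bound was 6.84-fold when HD-homo replicate 1 was left out and 6.42-fold when replicate 2 was.

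The ligands themselves were near or at 0. Shh had 3 and 1 counts in control and 0 in both HD-homo libraries, Ihh had 1, 4, 3 and 2 counts, and Dhh had 1 count in control replicate 2 alone. Of the 9 genes for ligands and their release, 3 were tested, with 1 called higher and 0 lower. Among all tested genes 10.4% were called higher and 10.9% lower. Hhat, which attaches a fatty acid to the ligands, was at 2.83 and 3.94 CPM in control and at 14.8 and 18.6 CPM in HD-homo libraries. Both HD-homo values were above both controls, and Hhat rose 4.92-fold (log2 fold change 2.30, SE 0.29, edgeR adjusted p = 5.99e-05). Disp1, which releases ligand from cells, had a log2 fold change of 0.17 (edgeR adjusted p = 0.721, and -0.12 without HD-homo replicate 1), and Scube3, a secreted helper of release, one of -0.45 (edgeR adjusted p = 0.436). The median of the 3 was 0.17, beside 0.0017 for all tested genes.

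Of 28 other receptors and signal transducers, 25 were tested, with 2 higher, 2 lower (8.0% each way, near the 10.4% and 10.9% of all tested genes) and a median log2 fold change of 0.01. The higher pair were Evc and Evc2, whose proteins form a complex near the base of the cilium that binds Smo. Evc was at 17.0 and 16.5 CPM in control and at 84.8 and 87.1 CPM in HD-homo libraries, 5.13-fold higher (log2 fold change 2.36, SE 0.22, edgeR adjusted p = 3.73e-06). Evc2 was at 30.3 and 37.4 CPM in control and at 105 and 114 CPM in HD-homo libraries, 3.24-fold higher (log2 fold change 1.69, SE 0.22, edgeR adjusted p = 6.24e-05). These genes are neighbours on chromosome 5 and point away from each other, with annotated starts 1605 bases apart.

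The lower pair were Lrp2 and Gpr161. Lrp2, a large endocytic receptor that takes up Shh in the forebrain, had 204 and 264 counts in control and 0 and 1 in HD-homo libraries, and passed the filter through its control libraries. The ratio of control to HD-homo counts, pooled and scaled as for Gli1, was 423, with a counting interval of 75.6 to 16746. Leaving out HD-homo replicate 1 gave 218 (39.0 to 8638), and leaving out HD-homo replicate 2 gave a level at least 68.3-fold lower. Gpr161, a ciliary receptor that restrains the pathway, was at 25.6 and 22.9 CPM in control and at 14.2 and 10.5 CPM in HD-homo libraries, 1.96-fold lower (log2 fold change -0.97, SE 0.25, edgeR adjusted p = 0.0137), and the call was lost without HD-homo replicate 2 (0.104). Sufu, which binds and restrains the Gli factors, was at 79.4 and 77.6 CPM against 54.3 and 56.8 CPM, with a log2 fold change of -0.50 that missed the threshold (edgeR adjusted p = 0.114).

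Smo and the Gli factors travel through the cilium on its transport machinery. All 43 were tested, 3 were higher (6.98%, beside 10.4% of all tested genes), 0 were lower (10.9% of all tested genes; 2 of the 43 with the replicate number as a block) and 40 were not called, with a median log2 fold change of 0.03. Before adjustment edgeR had 6 higher and 2 lower at a p under 0.05, and DESeq2 called 0 lower after it. Bbs7, a subunit of the BBSome coat, was at 2.69 and 2.56 CPM in control and at 6.30 and 6.87 CPM in HD-homo libraries (log2 fold change 1.32, SE 0.30, edgeR adjusted p = 0.00577). The changes of the intraflagellar transport genes Ift52 (0.79, edgeR adjusted p = 0.0200) and Ttc21b (0.78, edgeR adjusted p = 0.0468) were smaller. Ift52 lost its call when either control library was left out (edgeR adjusted p = 0.0581 for replicate 1 and 0.0978 for replicate 2) or when HD-homo replicate 1 was (0.155), and Ttc21b without any 1 of the 4 libraries (0.0660 to 0.168), with total-count scaling, with at least 10 counts required, with DESeq2 and with limma-voom (adjusted p = 0.0553 to 0.0747). Ift57, of the same transport complex as Ift52, had a log2 fold change of 0.64 (edgeR adjusted p = 0.0573).

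Of 24 other genes known as Gli targets in various tissues, 16 were tested, and 4 were higher and 8 lower in HD-homo cells, with a median log2 fold change of -1.001, where 10.4% of all tested genes were called higher and 10.9% lower. The median was -0.33 (4 higher and 6 lower) when 10 counts were required in every library, which left out Sfrp1 and Bmp2, and -1.31 with no filter. Foxf1, a transcription factor gene that responds to Hedgehog in mesenchyme, was at 91.3 and 81.7 CPM in control and at 10.3 and 9.86 CPM in HD-homo libraries (log2 fold change -3.10, SE 0.23, edgeR adjusted p = 5.35e-07). Spp1, which encodes the secreted matrix protein osteopontin, was at 155 and 200 CPM against 40.1 CPM in each HD-homo library (log2 fold change -2.14, SE 0.22, edgeR adjusted p = 7.83e-06). These genes were well apart between the lines, each with both HD-homo libraries below both controls. Sfrp1, a secreted Wnt antagonist, was at 5.23 and 7.36 CPM against 0.622 and 0.584 CPM (log2 fold change -3.37, SE 0.40, edgeR adjusted p = 3.37e-05), and with 8 counts in each HD-homo library it passed the filter through its control libraries, as did Bmp2. Fst, which encodes the activin antagonist follistatin, went the other way, from 36.6 and 41.6 CPM to 175 and 144 CPM (log2 fold change 2.03, SE 0.22, edgeR adjusted p = 1.15e-05). The targets among the 9 genes were Gli1, called lower, Ptch1, not called, and Hhip, not tested.

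**Figure D5:**
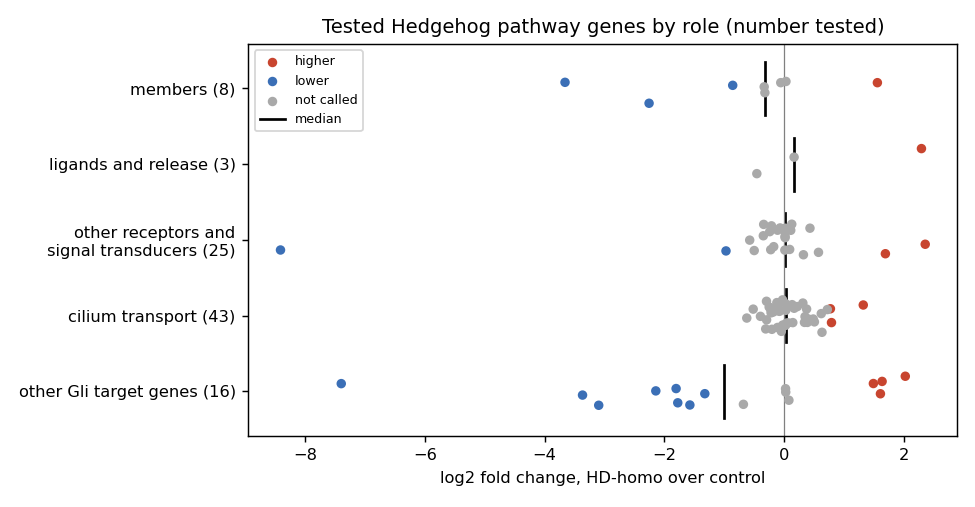
edgeR log2 fold change of HD-homo over control for each tested gene of 5 lists (points, coloured by call), with the median of each list as a black line; the vertical position within a list has no meaning. The medians are -0.33 for the members, 0.17, 0.01 and 0.03 for ligands, transducers and cilium transport, and -1.001 for the other Gli targets (-0.33 when 10 counts were required in every library).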

How the data were processed

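PS-RRA-mRNA-Seq measured polysomal mRNA after a harringtonine run-off in 2 control and 2 HD-homo libraries. The authors used cutadapt for trimming and Bowtie 1.1.2 to take out rRNA and tRNA, and deposited gene counts from RSEM 1.3.0 on GRCm38.p5, per the submitters' processing notes, as whole numbers; neither the strand setting nor the rounding is given in the sources used here. Size-factor scaled values deposited by the authors were not used. Genes passing filterByExpr were tested with edgeR 4.0.16 (R 4.3.3, TMM, quasi-likelihood), using these libraries only, without covariates. Total counts per library (12372090 to 15472808) limit low genes, and the counting intervals and floors cover counting error only, while the 95% intervals of log2 fold changes come from the edgeR fit and include the spread between libraries. CPM per kilobase used the exonic length of GENCODE M21. The members and lists were chosen with earlier results of these data known. Genes named were the 9 members, Shh, Ihh, Dhh, Sufu, up to 4 genes of lowest p per list, and the 3 genes nearest to the member of lowest p; some items are not reported here. Alternatives were scaling by DESeq2 size factors, upper quartile or total count, no filter, at least 10 counts in every library, DESeq2 1.42.0 and limma-voom 3.58.1. A replicate block and leaving out each library in turn made up the 12. Stricter thresholds were applied to the main fit. The scripts were tested on simulated data.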

Additional observations from a re-analysis of the deposited data

How the results depend on the processing

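Gli2 and Gas1 kept their calls under all 12 alternatives that tested them. Smo turned sign without control replicate 2 (-0.16) and without HD-homo replicate 1 (-0.21), and Cdon without control replicate 1 (0.14) and without HD-homo replicate 2 (0.36), and their ranges when 1 library was left out were -0.21 to 0.26 and -0.61 to 0.36. These ranges were -3.06 to -1.71 for Gli1 and -0.97 to -0.73 for Boc. Requiring 10 counts in every library, which tests fewer genes, gave 815 higher and 883 lower genes in all and 1 lower transducer, and left Gli1 untested. Labels share the replicate numbers, but nothing says that a number marks a shared culture or day. Deviations of same-numbered libraries from their group means correlated at 0.39 over the tested genes. Each mean is of 2 libraries, so both pairs give this same value. A fit with the number as a block called 2126 genes higher and 2350 lower, with 4 transducers lower, 6 cilium genes higher and 2 lower, changed no member's call, and added Sufu (adjusted p = 0.00907) and Ift57 (0.00154). At an adjusted p under 0.01, 1 member and 1 transducer were lower and 1 cilium gene higher, and with an absolute log2 fold change of at least 1, 1 transducer was lower and 1 cilium gene higher. Leaving out 1 library gave 1 to 3 members lower, 1 to 2 transducers lower and 1 to 3 cilium genes higher, the lowest counts of members and transducers without HD-homo replicate 2. Causes were not tested. Depth limits Gli1, Hhip and the ligands most, at 0 to 19 counts per library.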
